A study of Mus musculus with 4 samples.

Results

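Dense clusters of H2A.Z sites are stretches of the genome where many separate H2A.Z peaks lie close together. They were chosen by the peak positions of 2 libraries, 1 from wild-type (Anp32e+/+) and 1 from knockout (Anp32e-/-) mouse embryonic fibroblasts. Peaks of the 2 lists that overlapped by 1 bp or more were joined into union regions. A cluster was a run of 5 or more union regions in which each gap from edge to edge was 5000 bp or less. Of 48585 union regions, 3678 lay in such runs, and they made 585 clusters. The remaining 44907 regions are called unclustered.

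H2A.Z is a variant of histone H2A that replaces it in some nucleosomes and is best known from promoters and enhancers. Remodelling complexes exchange it into chromatin, and Anp32e is a chaperone that binds it and is reported to take it out. The study asks how H2A.Z is placed when that chaperone is missing. In gene-dense sequence the promoters and enhancers that carry H2A.Z can lie only a few nucleosomes apart, so neighbouring ChIP-seq peaks come close to one another.

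Both cultures were fibroblasts on a C57BL/6 background, grown from single embryos of embryonic day 10.5 out of crosses of heterozygous parents and used between passages 5 and 10. The genotype was inherited, and the labels name no selection of cells beyond removal of the head and organs and growth in culture. Of the 4 libraries labelled, the 2 H2A.Z libraries gave 37667 wild-type and 41912 knockout peaks, and the 2 input libraries were not analysed here. There is 1 culture per genotype, no depth is known and the lists hold no check of the genotype, so all values describe these 2 libraries and no test between genotypes was made. Unless stated, intervals are 95% exact (Clopper-Pearson or binomial) intervals that cover counting error over regions only. They treat regions as independent, which neighbouring regions may not be, and can then be too narrow. Whether intervals overlap or are apart is therefore given as a description and not as a test.

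The clusters were compact and mostly small. The median cluster was 22090 bp long (quartiles 18594 and 27585 bp), from 10109 to 113523 bp, and all 585 together spanned 14.3 Mb. The median was 6 regions per cluster, 286 clusters had exactly 5 regions and 41 had 10 or more. Neighbouring regions in a cluster lay a median of 1823 bp apart (quartiles 786 and 3185 bp), against 12658 bp between all neighbouring regions. Union regions filled 56.2% of the cluster length, with wild-type peaks over 39.4% and knockout peaks over 49.5% of it. The lengths and gaps follow from the rule and are given as a description. At the threshold, 631 runs had 4 regions and 286 had 5, and 375 gaps within clusters measured 4001 to 5000 bp while 135 gaps beside a cluster measured 5001 to 6000 bp.

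Clusters were unevenly spread, and chromosome 15 held the most. It carried 61 clusters, and 442 of its 2741 regions (16.1%, interval 14.8 to 17.6%) were clustered, against 7.57% of all regions. Chromosome 4 followed with 59 clusters and 11.1% of its regions (10.1 to 12.3%), and chromosomes 5 and 11 had 52 clusters each. These 4 chromosomes held 224 clusters, or 38.3% of the total. At the other end, chromosome 14 had 4 clusters with 1.63% of its regions, and the X chromosome had 3 clusters with 1.85%.

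Region density by itself did not order the chromosomes in this way. Chromosomes 15, 19 and 11 had 27.4, 27.7 and 28.4 regions per Mb, and 16.1%, 9.35% and 9.31% of them were clustered. Neighbouring regions had median gaps of 7988, 9851.5 and 10219.5 bp on these 3 chromosomes. Within chromosome 15, 54 of the 61 clusters began beyond 75 Mb. How many of all its regions lay there is not given here. This count and those of the windows below therefore do not compare clusters with region density along a chromosome. Of the 10 windows of 5 Mb with most clusters in the genome, 4 lay on chromosome 15, the first being 100 to 105 Mb with 15 clusters. The next window off that chromosome was 25 to 30 Mb of chromosome 17 with 13 clusters. Across the genome, 200 of 534 windows held a cluster, and 42 windows (7.87%) held 50% of all clusters. The median distance from a cluster to the nearest other one was 239 kb, and 187 clusters (32.0%) had another within 100 kb.

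**Figure D1:**
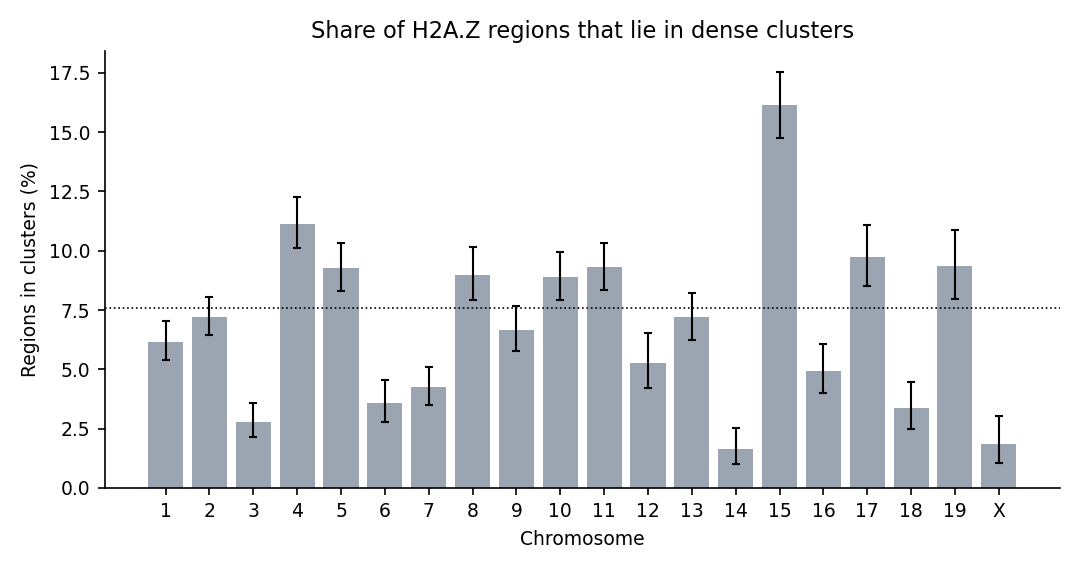
Share of union regions that lie in dense clusters on each chromosome (bars, in percent) with exact 95% intervals (error bars) and the genome-wide 7.57% (dotted line). Chromosome 15 stands highest at 16.1%, and chromosomes 14 and X are the lowest at 1.63% and 1.85%.

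Clustered regions were held in both genotypes slightly more often than other regions. In clusters 2385 regions (64.8%, interval 63.3 to 66.4%) were held in both, against 61.3% (60.9 to 61.8%) of unclustered regions and 61.6% of all regions. Knockout-only regions numbered 765 in clusters (20.8%, 19.5 to 22.1%), with 24.5% among unclustered regions and 24.2% among all. Wild-type-only regions numbered 528 (14.4%, 13.2 to 15.5%), with 14.2% both among unclustered regions and among all. Both lists entered the rule, so these shares are a description.

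The difference of 3.498 percentage points in the share held in both depended on how distance and width were treated. With runs built from region centres within 7000 bp of each other, the clustered share was 61.9% and the difference 0.304 points. Wide regions lie closer edge to edge than narrow ones with the same centres, and they were more often held in both. When all regions were sorted by width into 5 equal groups, the clustered share was the lower one in 4 of the 5, by -3.77, -1.01, -3.16 and -1.78 points, and the higher one in the group next to the narrowest, by 4.06 points. In clusters of 8 or more and of 10 or more regions the difference was 2.75 points (-0.237 to 5.74) and 2.20 points (-2.22 to 6.62), with intervals that include 0. These 2 intervals carry the counting error of the clustered share alone, set evenly about the difference, and are not exact. A region held in both is the union of a pair of peaks and is wider for that reason as well.

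**Figure D2:**
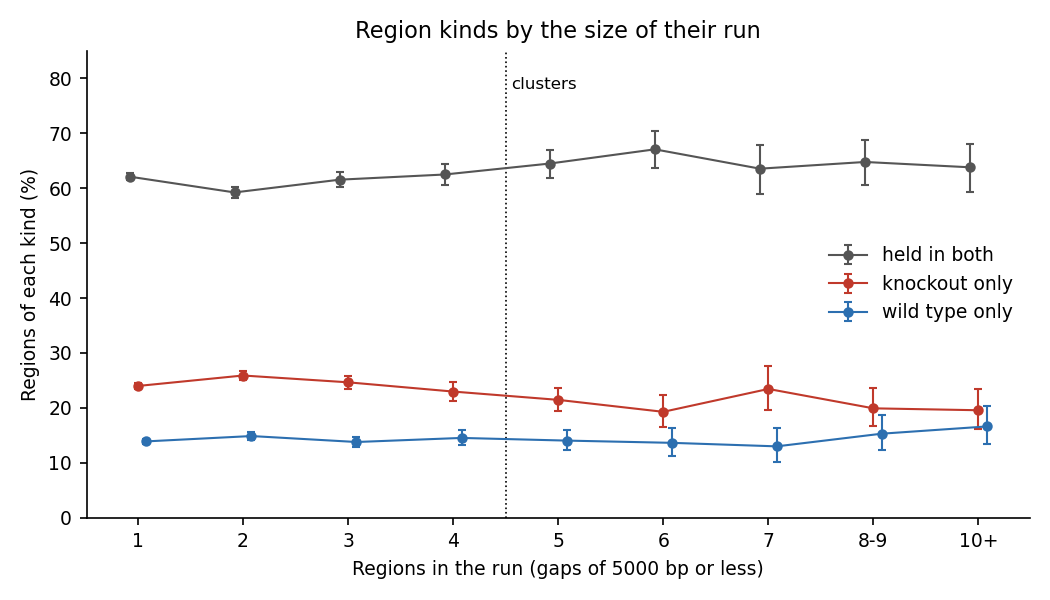
Share of regions held in both genotypes, in the knockout only and in the wild type only (percent, with exact 95% intervals) by the number of regions in their run; runs right of the dotted line are clusters. The share held in both stays between 59.2% and 67.1% from single regions to runs of 10 or more.

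The ratio of knockout-only to wild-type-only regions was lowest in the largest clusters, where the intervals are wide, and it did not fall steadily with the size of the run. Single regions had 6307 knockout-only and 3656 wild-type-only members, or 1.73 to 1 (interval 1.66 to 1.797). It was 1.74 in runs of 2, 1.79 in runs of 3, 1.58 (1.38 to 1.81) in runs of 4 and 1.53 (1.27 to 1.83) in runs of 5. In runs of 6 it was 1.41 (1.09 to 1.83), in runs of 7 it was 1.803 (1.31 to 2.51), and in runs of 8 or 9 it was 1.30 (0.968 to 1.75). In runs of 10 or more it was 1.18 (0.863 to 1.61), with 93 knockout-only and 79 wild-type-only regions. Over all clusters it was 1.45 (1.30 to 1.62), and over unclustered regions 1.73 (1.67 to 1.78). The pooled ratio mixes chromosomes that differ in opposite directions, and the clusters are concentrated on a few of them. The median over the 20 chromosomes was 2.13 in clusters and 2.28 outside.

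Taken chromosome by chromosome, one-genotype regions in clusters mostly leaned the same way as outside them. Chromosome 1 held 87 knockout-only and 6 wild-type-only regions in clusters, which makes 14.5 to 1 (interval 6.40 to 40.6), compared with 10.1 (8.49 to 12.03) outside. On chromosome 16 the counts were 40 and 3, and on chromosome 13 they were 80 and 12, with ratios of 13.3 and 6.67 against 7.97 and 4.14 outside. In the opposite direction, chromosome 4 held 14 knockout-only and 125 wild-type-only regions in clusters, a ratio of 0.112 (0.0595 to 0.195), and 0.212 outside. Chromosome 12 held 1 and 28, a ratio of 0.0357 (0.000873 to 0.216) against 0.362 (0.295 to 0.443) outside. Chromosome 11 held 24 and 86, a ratio of 0.279 (0.170 to 0.443) against 0.594 (0.52 to 0.679) outside.

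The ratio was further above 1 in clusters on 10 of the 15 chromosomes where knockout-only regions outnumbered wild-type-only ones outside clusters, and further below 1 on 4 of the 5 where they did not. The intervals of clustered and unclustered regions were apart on chromosomes 11, 12 and X and overlapped on the other 17. Chromosome 6 was the exception among the 5, with 5 knockout-only and 6 wild-type-only regions in clusters and a ratio of 0.833 against 0.413 outside.

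On the X chromosome clusters and other regions pointed in opposite directions. Its clusters held 4 wild-type-only and 0 knockout-only regions, while outside them the ratio was 3.41 (interval 2.47 to 4.79). The 3 clusters are parts of 1 locus of 55305 bp, from 47919414 to 47974718, divided by gaps of 5344 and 5387 bp that are just over the limit. Each part had 5 wild-type peaks, and the knockout had 4, 4 and 3. The X values therefore describe 1 place.

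The width of matched peaks was compared in the same way. A matched pair is a region made of exactly 1 wild-type and 1 knockout peak, and 2245 of the clustered regions were such pairs. Median widths were 1792 bp (wild type) and 2102 bp (knockout), and knockout minus wild-type width had a median of 238 bp (interval 223 to 261 bp). Among 26734 unclustered pairs it was 213 bp (209 to 217 bp). The difference between these medians, and whether their intervals overlapped, changed with the rule and with the chromosomes included. With gaps of at most 2500 bp the medians were 213 bp (180 to 264 bp) in clusters and 215 bp (210 to 219 bp) outside. With centres within 7000 bp they were 224 bp (208 to 239 bp) and 214 bp (210 to 218 bp), and without chromosome 15 they were 223 bp (205 to 239 bp) and 208 bp (204 to 212 bp), with overlapping intervals in each of these cases. They also overlapped with peaks within 500 bp joined. The intervals were apart with gaps up to 10000 bp, at 240 bp (231 to 252 bp) and 207 bp (203 to 211 bp). The same held without chromosomes 1, 4, 12, 13, 15 and 16, at 234 bp (213 to 254 bp) and 205 bp (201 to 210 bp). Clusters of at least 4, 8 or 10 regions had intervals apart from the unclustered ones as well. The spread was larger in clusters, with quartiles of 23 and 543 bp against 42 and 436 bp. The wider peak was that of the knockout in 1727 clustered pairs (76.9%, 75.1 to 78.7%), in 79.9% of unclustered pairs and in 79.7% of all pairs. The wild-type peak was wider in 517 clustered pairs (23.0%), against 20.2% of all pairs.

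Of the 14 chromosomes with 50 or more clustered pairs, the intervals of clustered and unclustered pairs were apart on 5 and overlapped on 9. On chromosome 1 the median difference was 633 bp in clusters (546 to 795 bp, 110 pairs) and 398 bp outside (377 to 417 bp). On chromosome 5 it was 463 bp (369 to 517 bp, 186 pairs) against 305.5 bp (284 to 330 bp). Chromosome 15 had 439 bp (387 to 503 bp, 272 pairs) against 348 bp (311 to 372 bp), and chromosome 9 had 350 bp (269 to 380 bp, 112 pairs) against 246 bp (230 to 268 bp). On chromosome 4 the knockout peak was the narrower one, with a median of -158 bp in clusters (-214 to -102 bp, 225 pairs) and -18 bp outside (-32 to -5 bp). The intervals overlapped on chromosomes 2, 6, 7, 8, 10, 11, 13, 17 and 19, with clustered medians from 86 bp on chromosome 11 to 416 bp on chromosome 13. Among the 6 chromosomes with fewer pairs the intervals were apart on the X alone, where 11 clustered pairs, all from the 1 locus above, had a median of -108 bp (-215 to 71 bp) against 267.5 bp (245 to 298 bp).

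**Figure D3:**
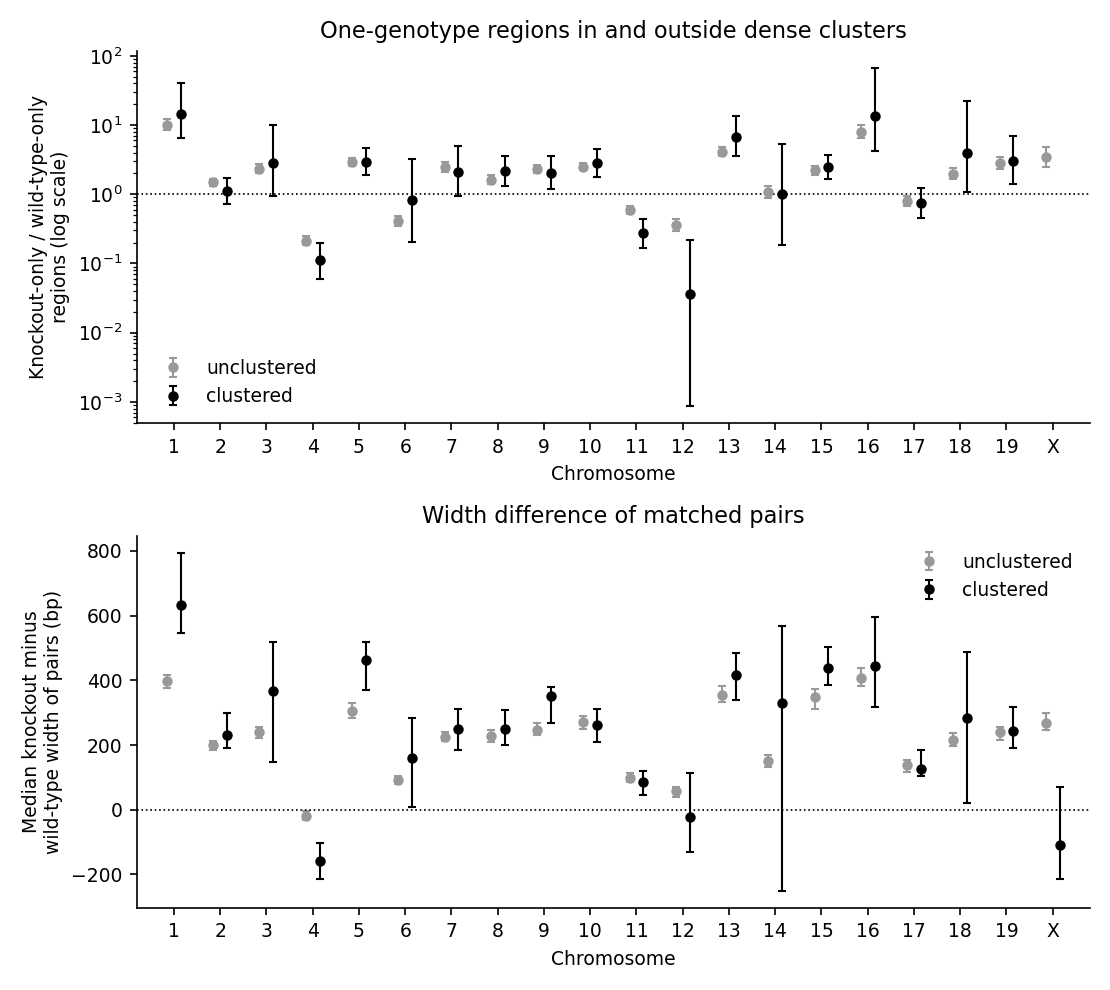
Upper panel, ratio of knockout-only to wild-type-only regions on each chromosome (log axis) in clusters (black) and outside (grey); lower panel, median knockout minus wild-type width of matched pairs (bp). Bars are exact 95% intervals; the clustered ratio of the X chromosome is 0 and is not drawn. Clustered pairs reach 633 bp on chromosome 1 and -158 bp on chromosome 4, further apart than the unclustered pairs of those chromosomes.

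The pair difference was also taken by the size of the run. Chromosomes were grouped with the direction of their unclustered peaks already known, so the order of the groups is not a result. The other chromosomes are a mixed group. Their unclustered ratio of knockout-only to wild-type-only regions ran from 0.797 (0.677 to 0.936) on chromosome 17 to 3.41 on the X. On chromosomes 1, 13 and 16 the median pair difference was 363 bp (interval 347 to 380 bp) for single regions, 419 bp in runs of 2, 453.5 bp in runs of 3 or 4, 466 bp in runs of 5 or 6 and 563 bp (429 to 675 bp) in runs of 7 or more. The ratio of knockout-only to wild-type-only regions there was 6.37 (5.62 to 7.25) for single regions and 15.8 (6.49 to 50.0) in runs of 7 or more. On chromosomes 4, 6, 11 and 12 the pair difference was 57 bp (48 to 65 bp) for single regions, 68 bp in runs of 2, 30 bp in runs of 3 or 4, -3.5 bp (-50 to 30 bp) in runs of 5 or 6 and -19.5 bp (-68 to 39 bp) in runs of 7 or more. The ratio there was 0.391 (0.353 to 0.433) for single regions and 0.182 (0.104 to 0.302) in runs of 7 or more. On the other chromosomes the pair difference was 223 bp (217 to 230 bp) for single regions and 308 bp (280 to 361 bp) in runs of 7 or more, while the ratio was 1.96 (1.86 to 2.07) and 1.798 (1.43 to 2.27). These values mix chromosomes whose parts change with the size of the run, so each chromosome was also left out in turn, a comparison added after seeing the data. Chromosome 4 supplied 27.4% of the single pairs of its group and 46.5% of those in runs of 7 or more. Without it the pair difference of chromosomes 6, 11 and 12 was 83 bp (73 to 90 bp) for single regions and 100 bp (39 to 146 bp) in runs of 7 or more, so the fall was not seen. The ratio of these 3 chromosomes was 0.502 (0.445 to 0.566) and 0.304 (0.155 to 0.563). Leaving out chromosome 6, 11 or 12 instead gave pair differences of 46, 42 and 58.5 bp for single regions. In runs of 7 or more these were -32, -74 and -30 bp. Chromosome 15 supplied 6.24% of the single pairs and 28.4% of the pairs in runs of 7 or more of the other chromosomes. Without it their pair difference was 220 bp (214 to 226 bp) and 278 bp (238 to 314 bp). Without chromosome 1 the pair difference of chromosomes 13 and 16 was 356 bp (334 to 375 bp) and 432 bp (321 to 560 bp), with overlapping intervals. Leaving out chromosome 13 gave 381.5 bp (362 to 399 bp) and 621 bp (439 to 838 bp). Leaving out chromosome 16 gave 353 bp (334 to 371 bp) and 607.5 bp (439 to 815 bp), with intervals apart in both cases. Position within a chromosome and width of the regions were not held equal, and their part was not tested.

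**Figure D4:**
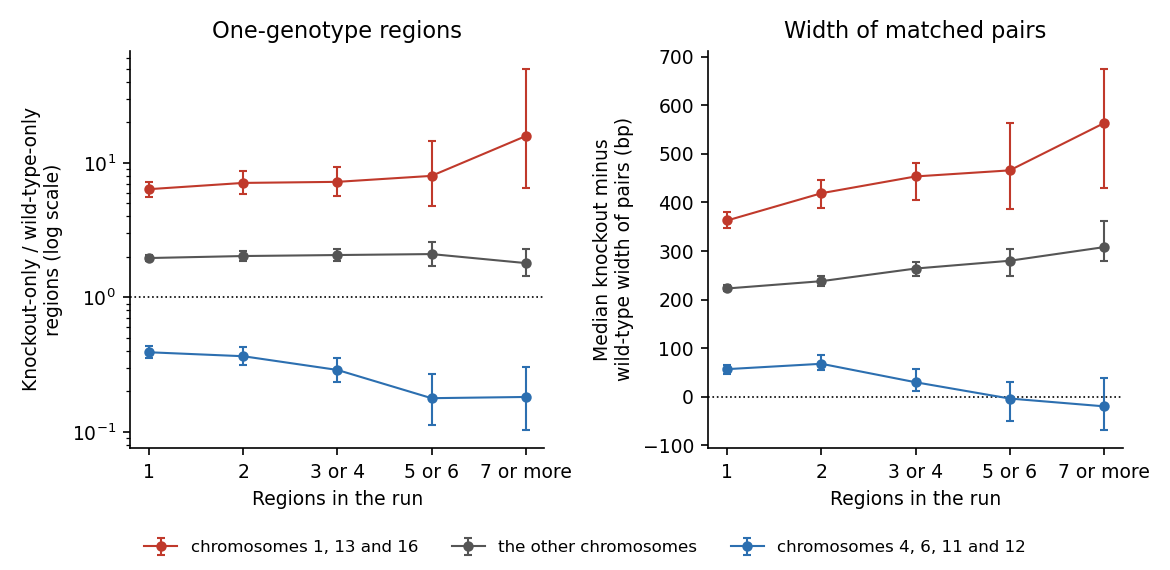
Left, ratio of knockout-only to wild-type-only regions (log axis) and, right, median knockout minus wild-type width of matched pairs (bp), by the number of regions in the run, with exact 95% intervals, for 3 groups of chromosomes. From single regions to runs of 7 or more the pair difference goes from 363 to 563 bp on chromosomes 1, 13 and 16 and from 57 to -19.5 bp on chromosomes 4, 6, 11 and 12; without chromosome 4 the latter are 83 and 100 bp.

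Within clusters the knockout peaks reached further on either side, by medians between 93 and 111 bp. In the 743 matched pairs at an end of a cluster the knockout peak extended a median of 111 bp (98 to 124 bp) beyond the wild-type peak on the side facing the cluster and 93 bp (76 to 111 bp) on the outward side. Inner pairs had medians of 110 and 107 bp on their lower and higher coordinate sides, and unclustered pairs 92 and 94 bp. The 2 sides of end pairs were measured on the same 743 pairs, and no difference within pairs was taken. Whether the sides differ was therefore not tested. End regions were more often held in both (67.9%, 65.2 to 70.6%, of 1170) than inner regions (63.4%, 61.5 to 65.3%, of 2508), and they were also wider, with medians of 1994.5 and 1885.5 bp; the part of width in this was not tested.

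Wide and joined peaks are favoured into clusters by the rule, because a wide peak shortens the gaps beside it, so their shares are a description. Of clustered knockout peaks 84 (2.64%, 2.11 to 3.25%) were wider than 5000 bp, against 1.00% (0.905 to 1.11%) of unclustered ones. In the wild-type list the shares were 1.02% (0.693 to 1.44%) and 0.520% (0.447 to 0.601%). A single knockout peak covered several wild-type peaks in 105 clustered regions (2.85%, interval 2.34 to 3.45%) and in 1.41% of unclustered regions. The reverse, 1 wild-type peak over several knockout peaks, was found in 0.598% (22 regions) and 0.289%. Chromosome 15 contributed 32 of the 84 wide knockout peaks. Without it the shares of wide knockout peaks were 1.87% and 0.891%, and those of regions with joined wild-type peaks 2.32% and 1.36%.

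In counts of peaks, the genotypes were nearly even inside clusters. Wild-type peaks numbered 3045 and knockout peaks 3185, which gives 1.05 knockout peaks per wild-type peak (0.995 to 1.10), against 1.12 (1.10 to 1.13) among unclustered peaks. These intervals treat the peaks of the lists as independent counts. In clusters, however, 2517 wild-type and 2420 knockout peaks lay in regions held in both. The intervals therefore do not show whether the numbers of peaks differ. One-genotype regions in clusters, 765 knockout-only and 528 wild-type-only, gave a ratio of 1.45 (1.30 to 1.62). In covered sequence the knockout had 7.10 Mb and the wild type 5.65 Mb in clusters, a ratio of 1.26, close to the 1.27 outside. The knockout covered more sequence in 417 clusters (71.3%) and the wild type in 168. The median ratio of covered sequence per cluster, over clusters with a wild-type peak, was 1.26 (1.20 to 1.30).

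Clusters were also counted by the kinds of region they held, and these counts follow in part from the shares of the kinds and the number of regions per cluster. Regions held in both alone made up 57 clusters (9.74%). Knockout-only but no wild-type-only regions were present in 218 clusters (37.3%), wild-type-only but no knockout-only regions in 150 (25.6%), and both kinds in 160 (27.4%). Knockout peaks outnumbered wild-type peaks in 262 clusters, wild-type peaks were more numerous in 204, and the numbers were equal in 119. The difference per cluster ran from -7 to 6 peaks with a median of 0.

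The direction again followed the chromosome. On chromosome 1, 29 of 31 clusters had more knockout peaks and 0 had more wild-type peaks, and on chromosome 16 all 15 had more knockout peaks. On chromosome 12, 10 of 11 clusters had more wild-type peaks, on chromosome 4, 46 of 59, and on chromosome 11, 37 of 52. On chromosomes 1, 13 and 16 together there was no cluster composed of regions held in both alone, and 25 of 79 clusters had at least 50% knockout-only regions. Over all 585 clusters, 70 had at least 50% knockout-only regions. Of these 70, 45 lay among the 372 clusters of the other chromosomes and 0 on chromosomes 4, 6, 11 and 12. Clusters with at least 50% wild-type-only regions numbered 28. Of these, 22 lay among the 134 clusters of chromosomes 4, 6, 11 and 12. A further 6 lay on the other chromosomes and 0 on chromosomes 1, 13 and 16.

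Neighbours of one-genotype regions were of the same genotype more often than the shares among clustered regions. Of 384 clusters with 2 or more one-genotype regions, 140 held knockout-only and 84 held wild-type-only regions alone, and 160 were mixed. Of 1305 neighbours of knockout-only regions in clusters, 388 (29.7%) were knockout-only and 110 (8.43%) wild-type-only. Of 906 neighbours of wild-type-only regions, 196 (21.6%) were wild-type-only and 110 (12.1%) knockout-only. Among all clustered regions the shares are 20.8% knockout-only and 14.4% wild-type-only, and genome-wide they are 24.2% and 14.2%. The differences between chromosomes move with these values. Of such clusters, 17 of 69 were mixed on chromosomes 1, 13 and 16 and 29 of 86 on chromosomes 4, 6, 11 and 12. On the other chromosomes, which lean in either direction, 114 of 229 were mixed. Gaps hardly depended on kind, with medians of 1812.5 bp between 2 regions held in both, 2037 bp between 2 knockout-only regions and 1757.5 bp between 2 wild-type-only regions.

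Each list was also searched on its own for runs of 5 or more peaks with gaps up to 5000 bp. The knockout list gave 379 such runs with 2295 peaks (5.48% of the list), and the wild-type list gave 306 runs with 1867 peaks (4.96%). In 160 of the 306 wild-type runs (52.3%) the knockout also had 5 or more peaks, and in 199 of the 379 knockout runs (52.5%) the wild type did. Knockout peaks were fewer in 228 wild-type runs and more in 7. Wild-type peaks were fewer in 254 knockout runs and more in 31. A list that defines the runs is favoured in them by selection, so the lower number in the other list is not read as a difference. Among wild-type peaks in wild-type runs 79.5% (77.6 to 81.3%) overlapped a knockout peak, against 81.8% of other wild-type peaks. Among knockout peaks in knockout runs 73.2% (71.4 to 75.05%) overlapped a wild-type peak, against 71.9% of the others.

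Peaks of each list were also compared at similar width, in 5 equal groups by width of that list, a comparison chosen after seeing the data. Among the narrowest group of knockout peaks, 49.5% (44.9 to 54.1%) of those in clusters overlapped a wild-type peak, against 38.8% (37.7 to 39.8%) of unclustered ones. In the next wider groups the shares were 64.3% (60.5 to 67.9%) against 56.3% (55.1 to 57.4%), and 76.1% against 76.0%. The order was reversed in the 2 widest groups, with 86.4% (83.6 to 89.0%) against 91.5% (90.8 to 92.1%), and 94.5% against 96.6%. Among the narrowest wild-type peaks the shares were 53.3% (48.9 to 57.6%) in clusters and 50.1% (48.9 to 51.3%) outside, and among the widest 99.3% and 99.4%. In the wild-type groups between these, from narrow to wide, they were 72.5% against 71.7%, 89.4% against 89.4%, and 96.3% against 97.8%. These shares are a description, because the positions of both lists entered the rule.

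The largest cluster lay on chromosome 1, from 88309811 to 88423333 on mm9, the build of the lists. It measured 113523 bp and held 22 regions, 15 held in both and 7 in the knockout alone, with none of the wild type alone. The knockout had 23 peaks over 71.6 kb and the wild type 18 over 42.6 kb, a ratio of 1.68 in covered sequence. All 12 matched pairs were wider in the knockout, by a median of 627.5 bp. Its regions were not changed alike. A wild-type peak of 11251 bp was met by 2 knockout peaks, the wider of 7803 bp. Counted from the start of the cluster, the wild-type peak ran from 20020 to 31271 bp. The 2 knockout peaks ran from 19977 to 23356 bp and from 23619 to 31422 bp, so their outer edges lay beyond it. Further along, a knockout peak of 10647 bp covered 3 wild-type peaks of at most 4496 bp. Of the 7 knockout-only regions, 4 lay among the first 6 regions, and they were 1376 to 3000 bp wide over the whole cluster.

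The second cluster by number of regions went the other way. It lay on chromosome 2 from 74492718 to 74554914 and held 15 regions, of which 8 were held in both, 7 in the wild type alone and 0 in the knockout alone. The wild type had 15 peaks over 29.8 kb and the knockout 8 over 17.7 kb, a ratio of 0.593. In 6 of its 8 matched pairs the wild-type peak was the wider one, and the median difference was -360 bp. The last region had the largest difference, from a wild-type peak of 3337 bp to a knockout peak of 1434 bp. Outside clusters chromosome 2 leaned towards the knockout, with 826 knockout-only and 555 wild-type-only regions. Its clusters together were nearly even, with 50 and 45 such regions. Knockout peaks were more numerous in 17 of them and wild-type peaks in 16. This cluster therefore ran against the unclustered regions of its chromosome, and its number of wild-type-only regions was 1 of the reasons for naming it.

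A block of 9 wild-type peaks lay on chromosome 17, where wild-type-only regions also outnumbered knockout-only ones outside clusters (344 against 274). From 73599628 to 73629780 it held 9 regions, with 3 held in both at its lower-coordinate end followed by 6 of the wild type alone, 950 to 1646 bp wide. Wild-type peaks covered 13.3 kb and knockout peaks 4.98 kb. The other clusters with most wild-type-only regions, 6 each, lay on chromosomes 4 and 11, where wild-type-only regions were in the majority both in clusters and outside. On chromosome 4 they lay from 150149785 to 150184297, with 9 wild-type and 3 knockout peaks, and from 154482819 to 154525783, with 12 and 6. On chromosome 11 the cluster from 101533978 to 101570637 had 10 wild-type and 4 knockout peaks. Shared sites were interspersed with wild-type-only ones in these 3 clusters, in contrast to the block on chromosome 17.

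Besides the largest cluster, 4 others were named for their knockout-only regions. Of 6 clusters with 6 such regions, the 2 named stood first by share of the cluster and then by length; the next, on chromosome 16, also had 6 of 7 regions and was 27921 bp long. On chromosome 5, the cluster from 53840895 to 53879062 had 7 knockout-only regions among 9, with covered sequence of 14.6 kb (knockout) and 3.21 kb (wild type). Its first 5 regions were all knockout-only, 1332 to 2024 bp wide. On chromosome 10, a cluster from 21118672 to 21147101 had 6 knockout-only regions around a single shared one, whose knockout peak measured 3081 bp and wild-type peak 1137 bp. On chromosome 13, the cluster from 91523243 to 91538642 had 6 regions in 15.4 kb, all of the knockout alone, 962 to 2104 bp wide. On chromosome 1, the cluster from 138547613 to 138596245 had 7 knockout-only, 5 shared and 1 wild-type-only regions, and covered sequence of 27.4 kb against 9.95 kb, a ratio of 2.75.

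**Figure D5:**
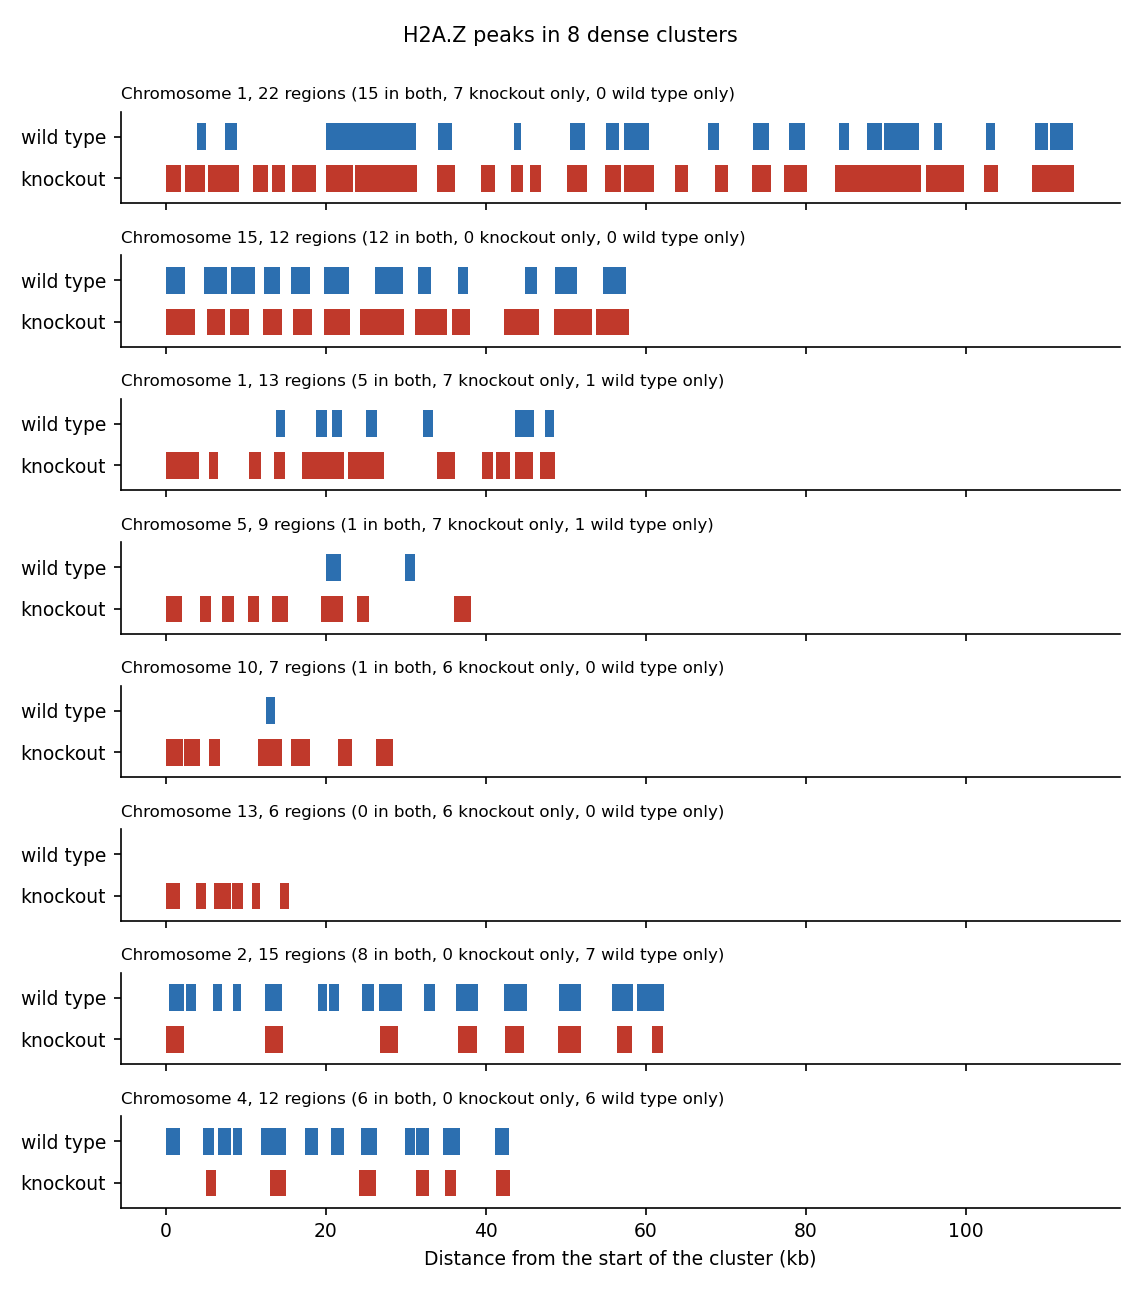
Wild-type (blue) and knockout (red) H2A.Z peaks in 8 of the named clusters, drawn to scale from the start of each cluster (kb). The clusters on chromosomes 2 and 4 have 7 and 6 sites with a wild-type peak alone, and those on chromosomes 5, 10 and 13 have 7, 6 and 6 sites with a knockout peak alone.

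Clusters fully held in both genotypes could still differ in width. The largest of them lay on chromosome 15 from 102180081 to 102237916, with 12 peaks in either list. The knockout covered 41.1 kb and the wild type 29.0 kb, and the knockout peak was wider in 9 of the 12 pairs, by a median of 1085 bp over all 12. The next, on chromosome 6 from 52160752 to 52197294, had 7 peaks in either list over 19.4 kb (wild type) and 17.8 kb (knockout), with the knockout peak wider in 4 of 7 pairs. The third, on chromosome 19 from 5921180 to 5946675, had 8 wild-type and 7 knockout peaks, which covered 13.49 and 13.43 kb.

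Other large clusters on chromosome 15 leaned towards the knockout in covered sequence. The cluster from 82050729 to 82106949 had 13 regions, 7 shared and 6 knockout-only, with 26.9 kb of knockout and 14.02 kb of wild-type peaks, and the knockout peak was wider in all 7 pairs. In the cluster from 85428782 to 85485269, 11 of 13 regions were shared and the ratio of covered sequence was 1.35. From 88666577 to 88725631 the ratio was 1.47 over 11 regions. The cluster from 98798455 to 98862000 had more wild-type than knockout peaks, 13 against 9, yet the knockout covered 35.0 kb and the wild type 28.8 kb. A single knockout peak of 13374 bp there covered 2 wild-type peaks.

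The remaining clusters of 12 or more regions named by the rule had ratios of covered sequence on either side of 1. On chromosome 4, from 140203449 to 140259887, the wild type had 12 peaks and the knockout 9, with a ratio of covered sequence of 0.766. On chromosome 2, from 37597103 to 37649743, the numbers were 11 and 9, with 4 wild-type-only and 2 knockout-only regions and a ratio of 1.03. On chromosome 9, from 96651998 to 96702618, they were 11 and 10, with 3 wild-type-only and 2 knockout-only regions and a ratio of 1.21.

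Of the 585 clusters, 5 had no region held in both, and they were picked out after their values were seen. Apart from the chromosome 13 cluster above, a second on chromosome 13 (56640030 to 56661472) had 5 regions, all knockout-only. The other 3 mixed the genotypes without overlap. On chromosome 5, 93263247 to 93273704, there were 4 wild-type-only regions and 1 knockout-only region. On chromosomes 9 (75122040 to 75137484) and 17 (29308066 to 29326988) there were 2 wild-type-only and 3 knockout-only regions each.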

How the data were processed

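H2A.Z ChIP-seq peaks of 1 wild-type and 1 knockout library were analysed. Each list the authors deposited gives the chromosome, start and end of its peaks and, per the file headers, was saved from Galaxy. Per the submitters' processing notes the build was mm9 and the tools included HOMER, MACS 1.4.2, Bowtie 0.12.8 and CASAVA 1.8.2. How each was set, and whether inputs served as control, is not given in the sources used here. The lists hold no score or count, so depth is unknown, and peak number and width depend on it. Reads were single-end, 50 bases, per the labels' protocols.

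Union regions, runs and widths were computed with scipy 1.17.1, pandas 2.3.3 and numpy 2.4.6 under Python 3.11.15, figures with matplotlib 3.10.9, and the code was tested on simulated data. Ratios of one-genotype regions carry intervals from the exact binomial interval of their share. Coordinates count from 1. Clusters named were the 10 with most regions, the 5 longest, the 5 with most knockout-only and the 5 with most wild-type-only regions (ties by share of the cluster, then by length), and the 3 largest held in both throughout, 20 in all. The members, chromosome groups and these choices were made with earlier results of these data known. Gene names and sequences were not used here, because the gene tables at hand are on another build than the peaks. Repeats were not screened.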

Additional observations from a re-analysis of the deposited data

How the results depend on the processing

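Of 138 alternative values of the main results, 78 stayed within the interval of the reported value (counts within 1.5 times), 52 moved beyond it and 8 reversed. The ratio of covered bases has no interval of its own. For it the interval of the median ratio per cluster (1.20 to 1.30) was used. The interval of the difference in the share held in both carries the counting error of the clustered share alone. Numbers and lengths of clusters move with the rule by construction. A gap of 2500 bp gave 144 clusters of median 16333 bp, a ratio of knockout-only to wild-type-only regions of 1.23 and a pair difference of 213 bp (215 bp outside clusters), and 12 of the 20 named clusters kept a run of 5. A gap of 10000 bp gave 1545 clusters of 33461 bp and a ratio of 1.69. With 4, 8 and 10 or more regions there were 1216, 105 and 41 clusters of median 4, 9 and 11 regions and 17433, 36858 and 46174 bp. With 8 and 10 or more the ratio was 1.24 and 1.18 and the pair difference 264 and 289 bp, and with 10 or more wild-type peaks outnumbered knockout peaks, at 0.978. Joining peaks within 500 bp gave 24375 bp, 68.0% held in both and 5.31 points above unclustered regions. Centres within 7000 bp gave 21259 bp, 61.9% and 0.304 points. Runs of the wild-type list alone numbered 306, of median 20183.5 bp. The union regions that touched a run spanned a median of 20580.5 bp. Of these regions 76.4% were held in both (15.3 points above the rest), and the pair difference was 146 bp. They reversed the ratio of one-genotype regions (0.0995), of peaks (0.761) and of covered bases (0.961). Runs of the knockout list alone numbered 379, with 71.0% (9.83 points), 303 bp, and ratios of 10.6, 1.27 and 1.49; either list favours itself by selection. Medians over chromosomes gave 2.13, 1.12 and 1.32 for these 3 ratios, and peaks of 1000 bp or more gave 2.09, 1.13 and 1.32. Without chromosomes 1, 4, 12, 13, 15 and 16 there were 375 clusters with 66.7% held in both. From the narrowest to the widest of 5 groups by width the clustered share was 9.73%, 44.5%, 67.6%, 86.3% and 94.8%, and its difference from unclustered regions reversed in 4 of them (-3.77, -1.01, -3.16 and -1.78 points). Autosomes alone moved none of the main results. After seeing the data, 4 alternatives were added: leaving out chromosome 15 kept all of them within the interval of the reported value (2.73 points), although the intervals of clustered and unclustered pair differences then overlap, unclustered regions weighted to the chromosomes of the clusters gave 3.97 points, and 2 are given with the results (each list's peaks at similar width, and chromosome groups without each chromosome). Unless stated, the cause was not tested. No paired analysis was possible because there is a single library per genotype. Depth is unknown and limits what any count or width of peaks can show.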
